A study of Ovis aries with 15 samples.

Results

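The vascular endothelial growth factor (VEGF) ligands and receptors were followed in the mammary gland of sheep between late pregnancy and lactation. The genes were chosen by their symbols: the ligands VEGFA, VEGFB, VEGFC and PGF, the receptor tyrosine kinases KDR, FLT1 and FLT4, and the co-receptors NRP1 and NRP2. Of these 9 genes, 7 carry their own symbol among the 24691 features of the deposited table. KDR was found through its NCBI gene ID, as the feature LOC443087, and is described beside the others, and PGF is not analysed here. Parenchyma was taken by needle biopsy from 2-year-old primiparous Romney ewes at day 135 of gestation (late pregnancy) and again at day 15 post partum (lactation). RNA of several ewes was pooled for each library, giving 9 late pregnancy and 6 lactation libraries. The ewes fell into 3 groups by the pasture that their own dams were allowed in early gestation: HM (ad libitum), MM (maintenance) and LM (sub-maintenance), all with dams on maintenance afterwards, and each group has 3 late pregnancy and 2 lactation pools. The ewes themselves were all managed and fed alike. The study's methods put 3 ewes in every pool while the labels put 2 in a lactation pool. Ewes were biopsied in both states, so pools of the 2 states can share ewes, and which pools do is not given in the sources used here.

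VEGF ligands are secreted proteins that drive the growth, survival and permeability of blood and lymphatic vessels. VEGFA acts mainly through KDR (VEGFR-2), while FLT1 (VEGFR-1) binds VEGFA, VEGFB and PGF and can hold VEGFA away from KDR, and FLT4 (VEGFR-3) is the receptor of VEGFC and VEGFD and is best known from lymphatic endothelium. The neuropilins NRP1 and NRP2 bind VEGF isoforms beside the kinase receptors and also bind class 3 semaphorins. The mammary gland lays down a dense capillary bed around its alveoli during pregnancy, and that bed carries the precursors of milk in lactation.

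A late pregnancy library held 6471237 to 16898986 reads on exons, and a lactation library 9014506 to 24001031. The 7 major milk protein genes took 13.7% to 23.4% of the exon reads before lambing and 71.3% to 75.8% in lactation, so every other gene shares a smaller remainder of a lactation library. Levels are therefore given as RPKM (reads on a gene over its exon length and over the size of the library) after TMM scaling, which sets the bulk of genes equal between libraries. The TMM factors lay between 1.56 and 1.83 in late pregnancy and between 0.432 and 0.505 in lactation. Without them the median log2 change of all tested genes was -1.93 in place of -0.03, so each direction below is relative to the bulk of genes. Changes are edgeR log2 estimates of lactation over late pregnancy, with p-values of the quasi-likelihood test adjusted by Benjamini-Hochberg over 13345 genes and called under 0.05. In bulk tissue, fewer cells of a type and less RNA per cell cannot be told apart.

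Of the 8 measured VEGF genes, 1 rose in lactation (VEGFA), 2 fell (VEGFB and NRP1) and 5 were not called (VEGFC, KDR, FLT1, FLT4 and NRP2). Across all tested genes, 33.1% were called higher and 35.2% lower, 68.4% in all, so the 3 calls among 8 genes are fewer than the background share would give. The median log2 change of the 8 genes was -0.11, beside -0.03 for all tested genes. Libraries of the 2 states did not overlap for 3 of the 8 genes, beside 40.2% of all tested genes. The levels of the 8 genes added together ran from 61.5 to 76.2 in late pregnancy and from 95.5 to 107.6 in lactation, and VEGFA alone made up most of that sum in lactation.

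**Figure D1:**
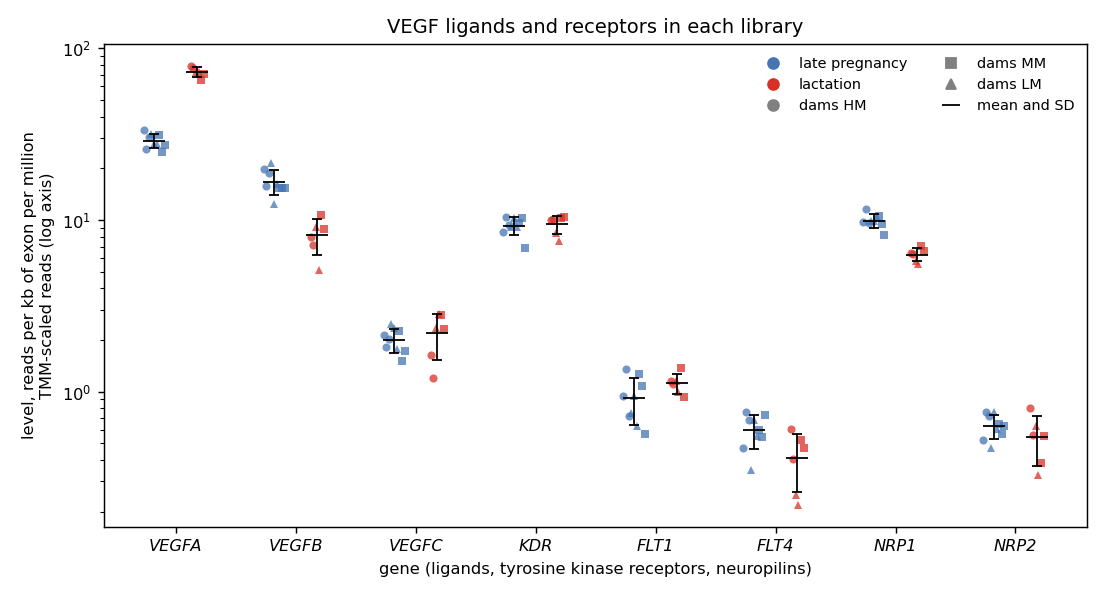
Level of each VEGF gene (RPKM with TMM-scaled library sizes, log axis) in 9 late pregnancy (blue) and 6 lactation (red) libraries, with marker shape for the dam group and bars for mean and SD. The states separate for VEGFA (upwards) and for VEGFB and NRP1 (downwards), and overlap for the other 5 genes.

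VEGFA, the main ligand for blood vessels, was the most abundant of the 8 genes per length in both states. In late pregnancy its level was 25.1 in the lowest library, 27.8 at the median and 33.3 in the highest (mean 28.9 ± 2.80, SD, n = 9). In lactation the same values were 65.2, 72.8 and 79.0 (mean 72.9 ± 4.75, SD, n = 6). Every lactation library stood above every late pregnancy library, by a wide gap. The change was 1.32 on the log2 scale (SE 0.07, 95% interval 1.18 to 1.47), 2.50-fold higher in lactation (edgeR adjusted p = 1.48e-12). Scaled by library size alone, VEGFA was lower in lactation (log2 change -0.58, edgeR adjusted p = 1.45e-07), although it then still stood above the median of all genes at -1.93. The gene lies on chromosome 20 from 17368866 to 17381962, and its model in the table has 6 exons with only 464 exon bases, on which 132 to 406 reads fell per library.

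VEGFB, a ligand of FLT1 linked to fatty acid transport across endothelium, went the other way. Its level was 12.4 in the lowest late pregnancy library, 15.8 at the median and 21.6 in the highest (mean 16.7 ± 2.81, SD, n = 9). In lactation it was 5.13, 8.43 and 10.7 (mean 8.16 ± 1.92, SD, n = 6). Again the states did not overlap, with lactation below late pregnancy. The change was -0.99 on the log2 scale (SE 0.14, 95% interval -1.29 to -0.70), 1.99-fold lower in lactation (edgeR adjusted p = 3.77e-06). VEGFB lies on chromosome 21 from 41848147 to 41850908, with 964 exon bases in 7 exons.

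VEGFC, the ligand of FLT4 and a growth factor of lymphatic vessels, was less abundant than VEGFA and VEGFB in every library. Its level ran from 1.50 through a median of 2.01 to 2.46 in late pregnancy (mean 2.00 ± 0.322, SD, n = 9) and from 1.20 through 2.33 to 2.83 in lactation (mean 2.19 ± 0.651, SD, n = 6). The lactation libraries lay on both sides of the late pregnancy range. The log2 change was 0.15 (95% interval -0.20 to 0.51, edgeR adjusted p = 0.437), from 11 to 112 reads per library. VEGFC lies on chromosome 26 from 6753472 to 6844356 and has 1613 exon bases in 7 exons. The study also measured VEGFC and FLT4 by RT-qPCR, among genes that it described as differentially expressed in its RNA-seq. It reported a positive correlation between the RNA-seq and RT-qPCR fold changes of those genes. Neither VEGFC nor FLT4 was called in the main edgeR fit here, and the study used another test. The primer pair of the VEGFC assay is shown because it defines the stretch of transcript measured outside sequencing:
VEGFC forward: gctggatgtttacagacaagtcc
VEGFC reverse: gtaatctgcggggcaagtc
No base is in capitals, since no part of either primer is singled out.

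Of the summed level of the 3 ligands, VEGFA made up 56.8% to 65.2% in late pregnancy, with a median of 60.2%. In lactation its share was 82.8% to 90.2%, with a median of 87.8%. The share of VEGFB was 29.2% to 38.7% in late pregnancy and 6.34% to 13.6% in lactation. VEGFC made up 3.59% to 5.53% and then 1.41% to 3.56%. The sum of these 3 ligands thus went from a mix of VEGFA and VEGFB to one made mostly of VEGFA. PGF and VEGFD (listed as FIGF, with mean levels of 3.68 in late pregnancy and 2.07 in lactation) are not part of it. The size of each share also depends on the gene models, as that of VEGFA has only 464 exon bases. A scaling factor of a library cancels in these shares.

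KDR, the main signalling receptor for VEGFA on blood vessel endothelium, had overlapping levels in the 2 states. Its level ran from 6.85 through 9.41 to 10.4 in late pregnancy (mean 9.29 ± 1.12, SD, n = 9) and from 7.53 through 10.1 to 10.4 in lactation (mean 9.44 ± 1.18, SD, n = 6). The ranges of the states lay almost on top of each other. The log2 change was 0.03, and its 95% interval from -0.16 to 0.21 bounds the level in lactation between 0.897 and 1.16 times that of late pregnancy (edgeR adjusted p = 0.795). With 243 to 1874 reads per library, KDR was the most deeply counted of the receptors. It lies on chromosome 6 from 70560500 to 70607455 and has 6135 exon bases in 30 exons.

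FLT1, which binds VEGFA and VEGFB and also exists as a soluble decoy, was far less abundant per length than KDR. Its level ran from 0.567 through 0.947 to 1.35 in late pregnancy (mean 0.918 ± 0.276, SD, n = 9) and from 0.932 through 1.13 to 1.37 in lactation (mean 1.12 ± 0.153, SD, n = 6). The lactation libraries lay inside the late pregnancy range or just above it, and the lowest, at 0.932, was under the late pregnancy median. The log2 change was 0.31 (95% interval -0.09 to 0.71, edgeR adjusted p = 0.158) at 21 to 121 reads per library. On the deposited quantile-normalized RPKM plus 1, limma called FLT1 higher (log2 change 0.30, adjusted p = 0.00656). FLT1 lies on chromosome 10 from 31868685 to 32043089 and has 3990 exon bases in 30 exons.

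FLT4, the receptor of VEGFC, had the fewest reads of the 8 genes, 5 to 88 per library. Its level ran from 0.349 through 0.596 to 0.756 in late pregnancy (mean 0.595 ± 0.132, SD, n = 9) and from 0.219 through 0.435 to 0.606 in lactation (mean 0.411 ± 0.152, SD, n = 6). Both lactation libraries of the LM group, at 0.219 and 0.249, lay below every late pregnancy library, and the other 4 lay inside its range. The log2 change was -0.50 (95% interval -0.96 to -0.03, edgeR adjusted p = 0.0569), which just missed the call. The call depended on the processing: FLT4 was lower with upper quartile scaling (adjusted p = 0.0158), with dam nutrition as a covariate (0.0358), with no filter on low counts (0.0467), and when 1 of 4 libraries was left out. Those libraries were pool 1 of the LM group in late pregnancy (edgeR adjusted p = 0.0171 without it), pool 1 of the HM group in lactation (0.0350) and in late pregnancy (0.0457), and pool 1 of the MM group in lactation (0.0413). Other settings weakened the change. By limma on quantile-normalized RPKM, FLT4 was not called, with log2 changes of -0.10 (1 added) and -0.27 (0.1 added). Without pool 1 of the LM group in lactation it was -0.38 (edgeR adjusted p = 0.154). By dam group the log2 change was -1.15 in LM, -0.31 in HM and -0.32 in MM. The interaction with dam group was not called (edgeR adjusted p = 0.860). FLT4 lies on chromosome 5 from 264515 to 303245 and has 4346 exon bases in 30 exons.

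NRP1, the co-receptor that strengthens VEGFA signalling through KDR, fell. Its level ran from 8.22 through 9.83 to 11.6 in late pregnancy (mean 9.93 ± 0.911, SD, n = 9) and from 5.53 through 6.37 to 7.06 in lactation (mean 6.29 ± 0.555, SD, n = 6). All lactation libraries lay below all late pregnancy libraries. The change was -0.65 on the log2 scale (SE 0.07, 95% interval -0.80 to -0.50), 1.57-fold lower in lactation (edgeR adjusted p = 8.31e-08). NRP1 lies on chromosome 13 from 18654135 to 18800137 and has 5603 exon bases in 17 exons.

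NRP2, which pairs with FLT4 in lymphatic vessels, was far less abundant than NRP1. Its level ran from 0.469 through 0.633 to 0.761 in late pregnancy (mean 0.632 ± 0.103, SD, n = 9) and from 0.326 through 0.556 to 0.807 in lactation (mean 0.543 ± 0.173, SD, n = 6). The lactation libraries spread to both sides of the late pregnancy range. The log2 change was -0.24 (95% interval -0.63 to 0.15, edgeR adjusted p = 0.254) at 7 to 92 reads per library. NRP2 lies on chromosome 2 from 206749404 to 206865721 and is the only member with 3 transcripts in the table, which together have 4081 exon bases in 20 exons.

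The order of the mean levels changed between the states. In late pregnancy it was VEGFA, VEGFB, NRP1, KDR, VEGFC, FLT1, NRP2 and FLT4, and the library ranges of neighbours overlapped for NRP1 and KDR, for FLT1 and NRP2 and for NRP2 and FLT4. In lactation it was VEGFA, KDR, VEGFB, NRP1, VEGFC, FLT1, NRP2 and FLT4, and the ranges overlapped for KDR and VEGFB, VEGFB and NRP1, VEGFC and FLT1, and NRP2 and FLT4. By mean level KDR thus stood behind VEGFB and NRP1 in late pregnancy and ahead of both in lactation, with no called change of its own. This did not hold in every library, and the order also depends on the exon length of each gene model.

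The table also holds reads on the whole gene, so the reads of a gene outside its annotated exons give a second count of the same gene from different reads. Of 10344 genes tested, 58.0% were called in this count, 29.0% in each direction, and 29.1% had no overlap between the states. VEGFA was higher in lactation by 1.52 on the log2 scale (95% interval 1.35 to 1.69, edgeR adjusted p = 1.60e-13). VEGFB was lower, with a log2 change of -1.29 (95% interval -1.98 to -0.60, edgeR adjusted p = 0.00194), from only 0 to 44 such reads per library. For VEGFA and VEGFB alone of the 6 genes tested the states did not overlap. NRP1 was lower, with a log2 change of -0.48 (edgeR adjusted p = 0.0388), and so was NRP2, with -0.68 (edgeR adjusted p = 0.00321), which was not called on exon reads. KDR (-0.03) and FLT1 (-0.11) were not called, and VEGFC and FLT4 had too few such reads to be tested. The call of NRP1 was lost when any 1 of 8 libraries was left out: both lactation pools of the HM, LM and MM groups except pool 1 of HM, pool 2 of the HM group in late pregnancy, and pools 1 and 2 of the MM group in late pregnancy (edgeR adjusted p = 0.0539 to 0.0984).

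VEGFA was unusual in where its reads lay. Of all its reads, 68.7% fell outside the 464 annotated exon bases, beside 47.2% for FLT1, 45.5% for NRP2 and 3.62% for KDR. Whether such reads come from introns or from transcribed sequence that the model leaves out cannot be told from the table. Reads that span 2 exons come from spliced RNA and were another count, chosen after the data were seen, in which 64.3% of 10748 genes were called. They are part of the exon reads, 43.9% of them for VEGFA, 33.3% for VEGFB and 21.5% for NRP1. By these reads VEGFA changed by 1.43 (edgeR adjusted p = 3.00e-12), VEGFB by -0.87 (edgeR adjusted p = 0.000108) and NRP1 by -0.32 (edgeR adjusted p = 0.00598) on the log2 scale. FLT4 was called lower as well, with -0.67 (edgeR adjusted p = 0.0397), while VEGFC, KDR, FLT1 and NRP2 were not called. VEGFA, VEGFB and NRP1 therefore had the same direction in 3 counts of their reads, 2 of which share reads. For VEGFB the count outside exons was low, down to 0 reads in a library. The change of NRP1 was smaller in the reads that span exons.

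**Figure D2:**
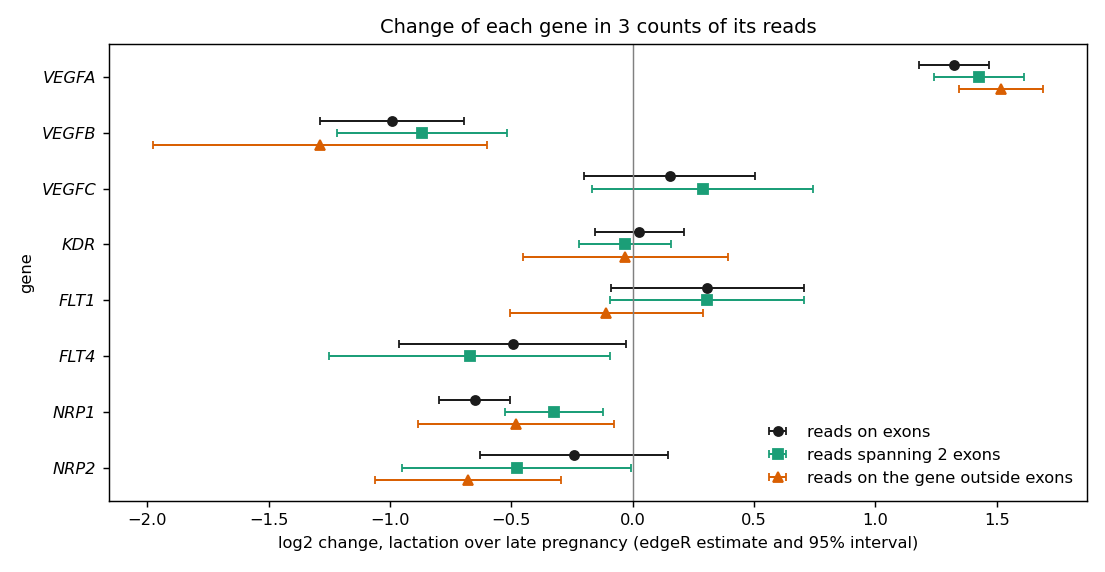
Change of each VEGF gene (log2 lactation over late pregnancy, edgeR estimate with its 95% interval) from reads on exons (black circles), reads spanning 2 exons (green squares) and reads on the gene outside exons (orange triangles). VEGFA lies between 1.32 and 1.52 and KDR between -0.03 and 0.03 in all 3 counts, and the intervals of FLT4, counted in 2 of them, lie just below 0.

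A scaling factor of a library cancels in the ratio of 2 of its genes, although quantile normalization does not. Of 10 ratios, 7 differed between the states at an exact two-sided permutation p under 0.05 over the 15 libraries, and 6 after Benjamini-Hochberg adjustment over the 10. The share among other gene pairs was not computed, and 68.4% of all tested genes were called between the states. Several of the ratios share a gene, so they are not separate results. VEGFA over its receptor KDR was 3.13 at the geometric mean in late pregnancy (libraries from 2.45 to 4.01) and 7.77 in lactation (6.40 to 9.69). The ratio rose by 1.31 on the log2 scale, with no overlap (exact permutation p = 0.0004, adjusted 0.0008, the smallest p these libraries allow). VEGFA over FLT1 rose from 32.5 to 64.5, by 0.99 on the log2 scale (exact permutation p = 0.0008, adjusted 0.0013), with overlap between 47.2 and 47.8. The main ligand thus gained on both of its kinase receptors.

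VEGFB over FLT1 went from 18.6 to 7.11, a log2 change of -1.39 without overlap (exact permutation p = 0.0004, adjusted 0.0008). VEGFA over VEGFB had the largest change of the 10 ratios: it was 1.75 in late pregnancy (1.47 to 2.23) and 9.07 in lactation (6.06 to 14.0), 5.20-fold higher without overlap (exact permutation p = 0.0004, adjusted 0.0008). VEGFC over FLT4 was 3.40 and 5.31, and the libraries overlapped (log2 difference 0.64, exact permutation p = 0.0967, adjusted 0.107). It passed 0.05 without pool 1 of the HM group in lactation (exact permutation p = 0.041) or pool 1 of the LM group in late pregnancy (exact permutation p = 0.0426). KDR over FLT1 was 10.4 and 8.31 (log2 difference -0.32, exact permutation p = 0.0587, adjusted 0.0734). On quantile-normalized RPKM its log2 difference was -0.66 (exact permutation p = 0.002), and it also passed 0.05 without pool 2 of the HM group or pool 1 of the MM group in late pregnancy, or without pool 2 of the MM group in lactation (exact permutation p = 0.023 to 0.0286). NRP1 over NRP2 was 15.7 and 11.7 (log2 difference -0.43, exact permutation p = 0.0424, adjusted 0.0605), and it passed 0.05 in 6 of the 15 fits without 1 library.

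Receptors were also set against the vessels that carry them. Markers of endothelial cells fell in lactation: of 13 tested, 10 were called lower, none higher and 3 not, beside 35.2% lower among all tested genes. Their median log2 change was -0.62 beside -0.03 for all tested genes. CLEC14A fell by 1.44 (edgeR adjusted p = 9.24e-10), EMCN by 0.96 (edgeR adjusted p = 9.02e-06) and EGFL7 by 0.88 (edgeR adjusted p = 1.62e-05) on the log2 scale, each without overlap of the states. The 3 markers not called were ENG (log2 change 0.17), ESAM (-0.10) and SOX17 (-0.98). The 13 markers summed to 109 to 145 per library in late pregnancy and 67.5 to 89.2 in lactation, and only SOX17 had a library at 0 reads. KDR over this sum was 0.0729 in late pregnancy (0.0628 to 0.0923) and 0.114 in lactation (0.107 to 0.126), 1.57-fold higher without overlap (exact permutation p = 0.0004, adjusted 0.0008). FLT1 over the sum was 1.96-fold higher, from 0.00702 to 0.0137, also without overlap (exact permutation p = 0.0004, adjusted 0.0008). FLT4 over the sum differed by 0.08 on the log2 scale (exact permutation p = 0.707, adjusted 0.707). FLT4 was thus not shown to rise relative to the summed endothelial markers, which fell. KDR and FLT1, neither called on its own, rose relative to that sum. ENG and ESAM, like KDR, were not called, so this holds for the sum and not for each marker.

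**Figure D3:**
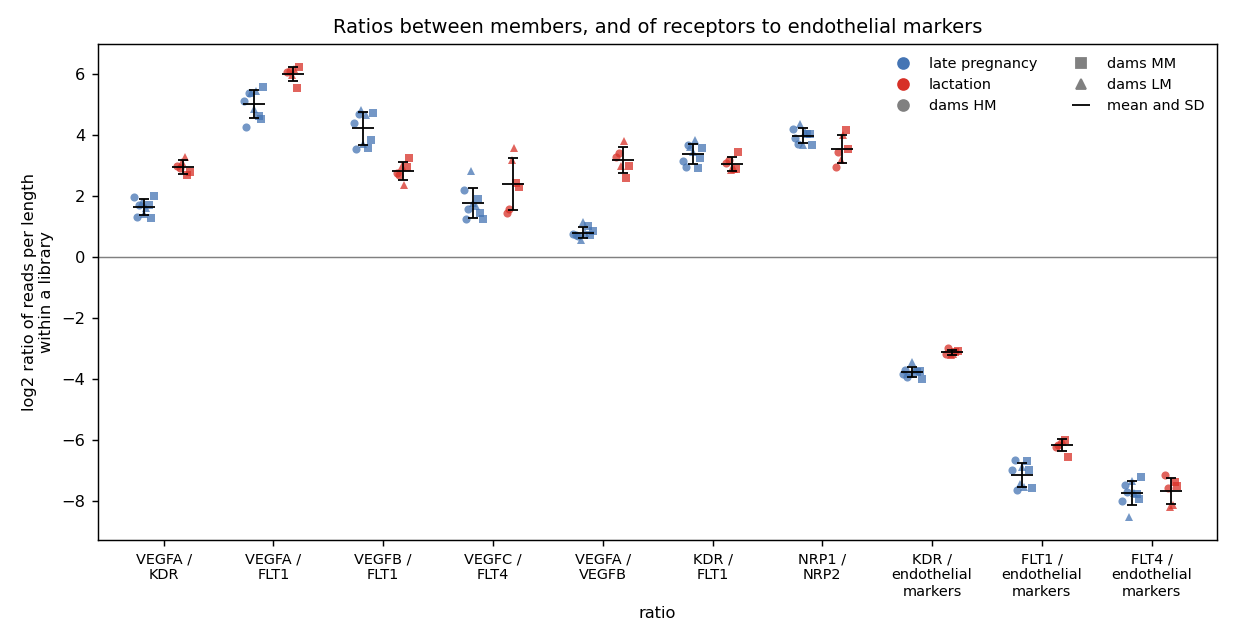
Log2 of the ratio of reads per length within a library for 7 pairs of VEGF genes and for 3 receptors over the summed endothelial markers, in late pregnancy (blue, 9 libraries) and lactation (red, 6 libraries), with marker shape for the dam group and bars for mean and SD. VEGFA over VEGFB moves furthest, from 0.80 to 3.18, and KDR and FLT1 over endothelial markers rise without overlap.

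Markers of other cell types changed as well, beside 33.1% called higher and 35.2% lower among all tested genes. Luminal epithelial markers summed to 1046 to 1288 in late pregnancy and 1696 to 1846 in lactation, with 4 of 8 called higher and 1 lower (2 and 3 by limma on quantile-normalized RPKM), and none of the 8 was at 0 reads in a library. Most of that sum was KRT19 (means 456 and 694) and ELF5 (430 and 753), while KRT8, CDH1 and CLDN3 were not called and CLDN4 was lower. Fibroblast markers summed to 317 to 492 and then 174 to 277, with 5 of 7 called lower and none higher. COL3A1 (means 152 and 57.0) was the largest part of that sum, and LUM and FBLN1 were not called. Mural cell markers had 3 of 7 lower and none higher (1 lower by limma and 5 with upper quartile scaling), macrophage markers 3 of 6 lower and 1 higher, myoepithelial markers 2 of 6 in each direction (0 higher and 3 lower by limma), and neither of 2 adipocyte markers was called. Lymphatic endothelial markers, which matter for VEGFC and FLT4, gave no single direction: of 5, PROX1 (1.42) and RELN (1.62) rose and PDPN fell (-0.92), while LYVE1 (0.13) and MMRN1 (0.06) were not called. The part of these shifts in the changes of the VEGF genes was not tested.

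Before VEGF ligands act they are folded, secreted and, for VEGFC and VEGFD, cut by proteases. Of 7 such genes tested, including the ligand gene VEGFD, 5 rose and 2 fell in lactation, with a median log2 change of 0.87. The shares over all tested genes were 33.1% higher and 35.2% lower. HSPA5, the chaperone BiP of the endoplasmic reticulum, rose 2.28-fold, from a mean level of 103 ± 12.4 (SD, n = 9) to 234 ± 29.4 (SD, n = 6). HYOU1, the chaperone ORP150, which is known to assist the secretion of VEGFA, rose 2.00-fold, from 13.3 ± 1.15 to 26.6 ± 3.42. FURIN, a protease that cuts VEGFC, fell 2.68-fold, from 17.5 ± 1.80 to 6.48 ± 1.38. The other proteases of the list, ADAMTS3 (log2 change 1.01), PCSK5 (0.87) and PCSK7 (0.68), were called higher. The states overlapped for ADAMTS3 and PCSK5, which had as few as 5 and 7 reads in a lactation library. Their lactation medians, 0.487 and 0.651, lay below their highest late pregnancy libraries at 0.505 and 0.708. The states did not overlap for HSPA5, HYOU1 and FURIN (edgeR adjusted p = 1.44e-10, 2.30e-10 and 3.72e-10). The gene of VEGFD, listed as FIGF, was the other that fell, with a log2 change of -0.84 (edgeR adjusted p = 7.62e-06).

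The neuropilins bind class 3 semaphorins, which signal through plexins. Of 12 semaphorin and plexin genes, 6 rose, 2 fell and 4 were not called, with a median log2 change of 0.38. Among all tested genes, 33.1% were called higher and 35.2% lower. SEMA3A, a ligand of NRP1 known to oppose the spread of endothelial cells, had a level of 0.095 to 0.447 in late pregnancy (5 to 31 reads) and of 13.6 to 26.4 in lactation (300 to 623 reads). Its log2 change was 6.66 (SE 0.20, edgeR adjusted p = 6.13e-16), 101-fold higher in lactation. It went from far below NRP1 in late pregnancy to above NRP1 in every lactation library, since NRP1 did not exceed 7.06 there.

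SEMA3C, which binds both neuropilins, rose 5.85-fold, from 2.13 ± 0.509 (SD, n = 9) to 12.3 ± 2.06 (SD, n = 6), without overlap (edgeR adjusted p = 2.98e-12). SEMA3E, whose receptor is PLXND1, rose 3.58-fold at a low level, from 0.167 ± 0.0624 to 0.635 ± 0.0955 (edgeR adjusted p = 1.22e-06). Among the plexins, PLXNA1, PLXNA2 and PLXNA4 rose (log2 changes 1.03, 0.82 and 1.82), and PLXND1 (-0.60) and PLXNA3 (-0.25) fell. SEMA3B (-0.29), SEMA3D (-0.05), SEMA3F (-0.17) and SEMA3G (-0.17) were not called. In the same fit, the log2 changes of SEMA3A and SEMA3C lay above the median of all genes by 6.69 and 2.58.

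Receptor signalling genes, from the adaptors to the MAP kinases, had no common direction: of 22 tested, 7 rose, 6 fell and 9 were not called. Their median log2 change was 0.08, and of all tested genes 33.1% were called higher and 35.2% lower. MAP2K1, the kinase MEK1, rose 2.12-fold (14.8 ± 0.882 to 31.4 ± 4.13). PLCG1, the phospholipase that KDR activates directly, fell 1.58-fold (5.51 ± 0.199 to 3.46 ± 0.637), and the states overlapped for neither gene (edgeR adjusted p = 2.56e-11 and 8.56e-07). These genes serve many receptors, not only those for VEGF.

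VEGFA is a classical target of the hypoxia-inducible factors. Of 7 oxygen sensing genes, 4 rose, 2 fell and 1 was not called (3 and 3 with upper quartile scaling). HIF1A, the oxygen-regulated subunit, rose 1.54-fold (14.9 ± 1.16 to 22.8 ± 1.47), EGLN1, a prolyl hydroxylase that marks it for destruction, rose 1.28-fold (18.7 ± 1.04 to 23.8 ± 1.72), and VHL, which carries it to the proteasome, fell 1.53-fold (11.7 ± 0.659 to 7.67 ± 0.875). The states did not overlap for these 3 genes (edgeR adjusted p = 9.25e-09, 6.67e-06 and 1.58e-07). Of 10 other genes known to respond to hypoxia, 4 rose, 4 fell and 2 were not called, with a median log2 change of 0.23, beside 33.1% called higher and 35.2% lower among all genes. ADM, the vasodilator adrenomedullin, rose 2.11-fold and the glycolytic enzyme ALDOA 1.36-fold, while LDHA, lactate dehydrogenase A, fell 1.55-fold (edgeR adjusted p = 3.36e-06, 3.73e-06 and 5.16e-06).

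Genes of sprouting and of the angiopoietin system fell more often than they rose: of 9 tested, 6 were called lower, 2 higher and 1 not. The median log2 change was -0.45, and 35.2% of all tested genes were called lower and 33.1% higher. ANGPT1, which steadies vessels through the receptor TEK, rose 8.88-fold, from 1.80 ± 0.245 (SD, n = 9) to 15.9 ± 2.62 (SD, n = 6), without overlap (edgeR adjusted p = 1.14e-15), while ANGPT2, its counterpart, was not called (log2 change 0.09). ESM1, a gene of endothelial tip cells known to be induced by VEGFA, fell 3.76-fold, from 10.7 ± 2.28 to 2.87 ± 1.23 (edgeR adjusted p = 1.66e-07). DLL4, a Notch ligand of tip cells, had a log2 change of -0.48, APLNR -1.31, PDGFB -0.61, ROBO4 -0.45 and TIE1 -0.26, all called. UNC5B, a netrin receptor of vessels, rose 2.75-fold (0.667 ± 0.142 to 1.85 ± 0.373, edgeR adjusted p = 2.90e-07). The median of the endothelial markers, for comparison, was -0.62.

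**Figure D4:**
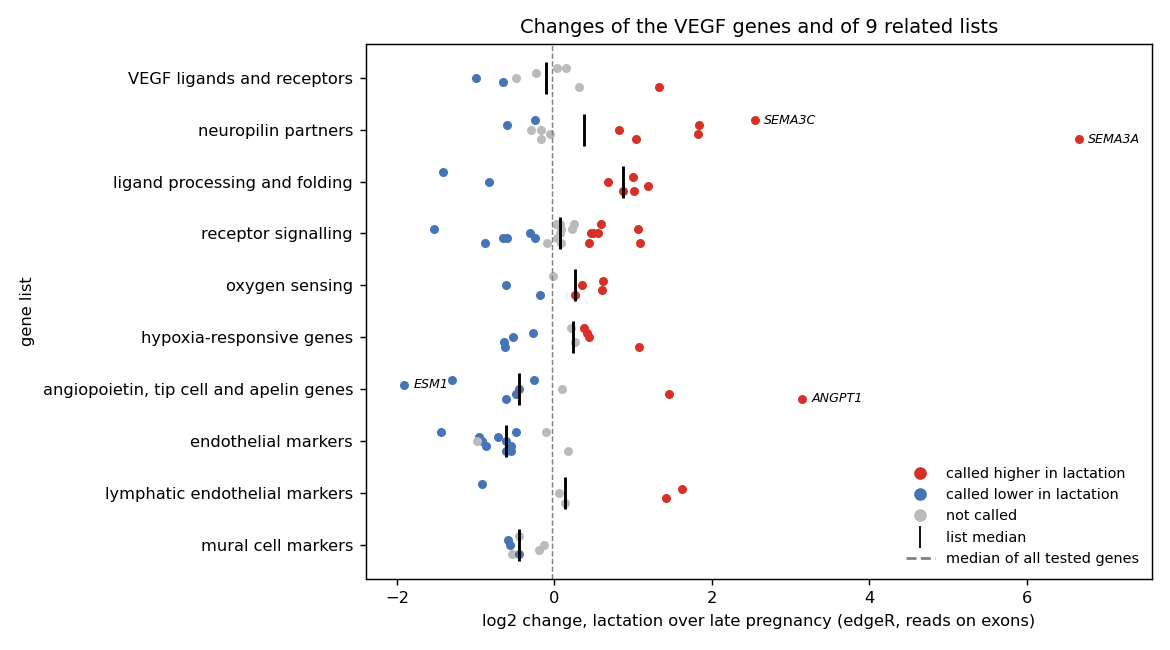
Log2 change (lactation over late pregnancy, edgeR) of each tested gene of the VEGF family and of 9 related lists, red where called higher, blue where called lower and grey where not called, with black bars for list medians and a dashed line for the median of all tested genes at -0.03. SEMA3A at 6.66 and ANGPT1 at 3.15 lie far from the rest, and the endothelial markers lie mostly to the left.

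The feed of the ewes' dams was compared within late pregnancy, where each group has 3 pools. None of the 8 VEGF genes was called, nor any of the 13747 genes tested (0%) by edgeR, where 571 had an unadjusted p under 0.05 (DESeq2 called 20 genes, none a VEGF gene). For VEGFA the mean level was 29.9 in HM, 27.9 in MM and 29.0 in LM, and the log2 difference of LM from HM was -0.05 (95% interval -0.32 to 0.21). For FLT1 that interval ran from -0.99 to 0.29, around a log2 difference of -0.35.

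The change between states was also compared among the dam groups, with 2 lactation pools each. None of 13345 genes was called for the interaction (0%) by edgeR, with 876 at an unadjusted p under 0.05 and 21 called by DESeq2, no VEGF gene among them. VEGFA rose by 1.37 in HM, 1.34 in LM and 1.29 in MM on the log2 scale. VEGFB changed by -1.28, -1.18 and -0.63, and NRP1 by -0.69, -0.81 and -0.46. All 3 genes were called in each group taken alone.

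Of the 8 genes, VEGFC had the log2 changes that lay furthest apart between dam groups. Both HM lactation libraries, at 1.20 and 1.63, lay below the HM late pregnancy libraries at 1.81 to 2.14, while both MM lactation libraries, at 2.30 and 2.80, lay above the MM late pregnancy libraries at 1.50 to 2.25. Its log2 changes were -0.52 in HM, 0.24 in LM and 0.49 in MM, with an unadjusted interaction p of 0.0597 and an edgeR adjusted p of 0.761. KDR was 7.53 and 8.42 in the LM lactation libraries and 9.99 to 10.4 in the other 4 (interaction adjusted p = 0.788 in edgeR). Neither gene therefore passed the test of a difference between dam groups. All 5 LM libraries name lane 8 in the table, as do 3 libraries of the other groups, and with lane as a covariate no VEGF gene changed its call between the states.

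Receptors were also compared across libraries within the states. After the mean of each state was taken off, Pearson's r over the 15 libraries was 0.80 between KDR and NRP1, 0.61 between FLT1 and NRP1, 0.61 between FLT4 and NRP2 and 0.57 between KDR and FLT1, the highest 4 of the 10 receptor pairs. The lowest were 0.13 between FLT1 and NRP2, 0.17 between FLT1 and FLT4 and 0.18 between NRP1 and NRP2. VEGFA lay between -0.30 and 0.19 with each of the other genes. The values share library depth and tissue composition, and they are given as a description only. Among 12263 genes that reached 1 CPM on average, the named genes with deviations most like those of the VEGF genes were PICALM for NRP2 (0.91), ALKBH2 for VEGFC (0.90), ATG3 for NRP1 (0.88), LIPG and CPVL for KDR (both 0.85), PRPF40B for VEGFB (0.84), PTGFR for FLT1 (0.84) and SEC61A2 for VEGFA (0.79). For FLT4 the 3 nearest features have no gene name in the table.

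Library scaling moved the 8 genes together with the bulk of genes. With TMM, upper quartile scaling or DESeq2, VEGFA was higher and VEGFB and NRP1 lower in lactation, and limma on quantile-normalized RPKM plus 1 gave 1.05, -1.04 and -0.62 on the log2 scale for these genes. Genes that were not called and lay near 0 could change sign between these settings, such as KDR at 0.03 with TMM and -0.05 with limma. Scaled by library size alone, all 8 were lower, from -0.58 for VEGFA to -2.89 for VEGFB, around an all-gene median of -1.93. VEGFA was above and VEGFB and NRP1 were below that median under each of these scalings.

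**Figure D5:**
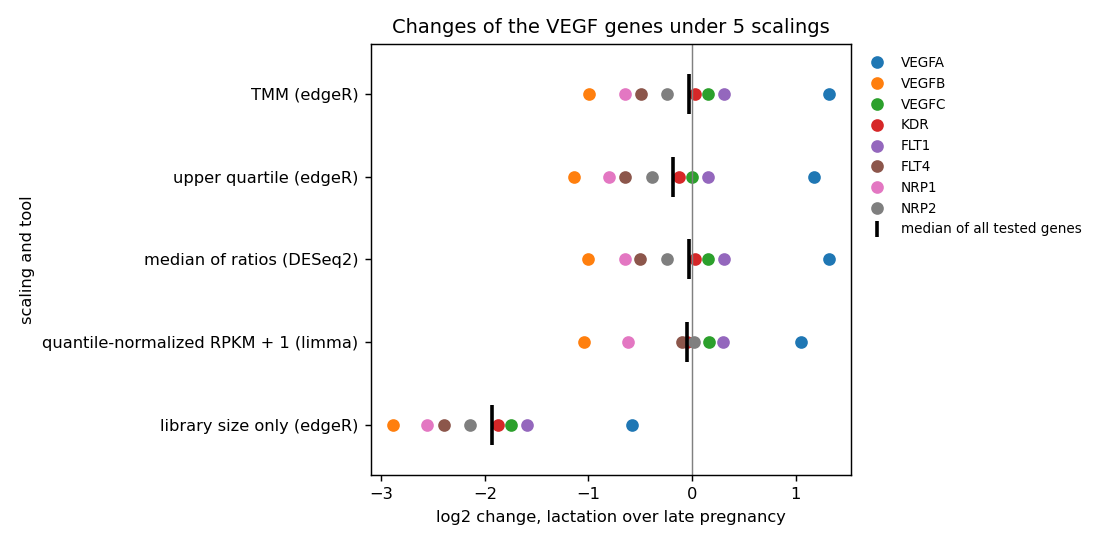
Log2 change (lactation over late pregnancy) of the 8 VEGF genes, one colour each, under 5 combinations of scaling and tool, with black bars for the median of all tested genes. Scaling by library size alone moves every gene and the median to the left together, so that VEGFA lies at -0.58 beside a median of -1.93.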

How the data were processed

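RNA of mammary biopsies was sequenced by the authors as 100 bp paired-end reads on an Illumina instrument from TruSeq libraries, 9 of late pregnancy and 6 of lactation, each a pool of several ewes. The authors mapped reads in CLC Genomics Workbench to the sheep genome, version 3.2 in the methods and Oar 3.1 in the submitters' processing notes, so coordinates are given as the table has them. The deposited counts are raw reads on exons, on exon junctions and on whole genes, and all exon reads of the 8 VEGF genes were placed uniquely. The deposited RPKM and their quantile-normalized form were made by the authors from those counts, and recomputed RPKM differed by at most 3.48e-07 of their value. The authors' fold changes, p-values and false discovery rates (Baggerly test) were not used. The labels do not say that pools are of separate ewes in every case, so p-values measure the spread between these pools. No 2 libraries held identical values.

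Exon reads (gene reads where a feature has no transcript) were tested with edgeR 4.0.16 in R 4.3.3: filterByExpr with state as group, TMM, quasi-likelihood F-test without covariates, Benjamini-Hochberg over all genes tested. Reads outside exons (gene reads less exon reads) were tested alike, as were dam nutrition in late pregnancy and its interaction with state. Ratios used reads plus 0.5 per exon length. Alternatives used DESeq2 1.42.0, limma 3.58.1, and other scalings, filters, reads, covariates and libraries. Figures and permutation tests used Python 3.11.15 with scipy 1.17.1. On simulated data with 200 changed genes, edgeR recovered 91.8% of 2-fold changes in the comparison of states (13143 genes). Apart from those genes the simulated states shared 1 mean profile, without the milk protein shift, so the simulation does not test the scaling.

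The VEGF genes and the other lists were chosen with earlier results of these data known. From each list, the 3 called genes with the largest change and no overlap of the states were named (1 is not reported here), and genes named beyond these were chosen after their values were seen.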

Additional observations from a re-analysis of the deposited data

Results flagged for a closer look

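The levels of 8 genes and 10 ratios were screened in each state for a library far from its group, 36 groups in all, of which chance alone flags about 1 in 20. The log2 ratio of KDR to the summed endothelial markers was -3.44 in pool 2 of the LM group in late pregnancy, above its nearest neighbour at -3.72, a gap of 0.503 of the whole range of the 9 libraries. Without that library the difference between the states was still called. No VEGF gene was called for a difference between dam groups in its change from late pregnancy to lactation.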

How the results depend on the processing

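Scaled by library size alone, 4 log2 changes had the opposite sign and were called: VEGFA -0.58, VEGFC -1.75, KDR -1.88 and FLT1 -1.59. VEGF genes called higher then numbered 0 and lower 8, and 5 were called lower on reads outside exons. On quantile-normalized RPKM, with 1 or 0.1 added, 2 were called higher. Leaving out 1 library gave 1 call higher and 2 to 3 lower on exons, 1 to 2 higher and 2 to 3 lower outside them, and 6 to 8 ratios with p under 0.05. The added gene outside exons was VEGFC, which then passed the filter on low counts. With NRP1 reads outside exons scaled by the TMM factors of exons, its log2 change was -0.40 and its call was lost. A fit with dam group and pool number as a replicate block called 8464 genes in place of 9122, and the same 3 VEGF genes. Pools of the same number did not deviate together (correlations -0.04 to 0.06), so the numbers are not taken to pair samples. DESeq2, the 7 milk protein genes left out, uniquely placed reads and lane as covariate changed no call of a VEGF gene. No VEGF gene was called for dam nutrition or its interaction under any alternative run. The causes were not tested. FLT4 and NRP2 had as few as 5 and 7 reads in a library.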
